A study of Mus musculus with 15 samples.

Results

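The insulin-like growth factor (IGF) and insulin axis was followed in the gastrocnemius, a calf muscle, through 10 genes chosen by name. They were the ligand gene Igf1, the receptor genes Igf1r and Insr, the receptor substrate genes Irs1 and Irs2, and the binding protein genes Igfbp3, Igfbp4, Igfbp5, Igfbp6 and Igfbp7. Each symbol matched 1 Ensembl gene among the 55450 genes counted, and all 10 passed the filter on low counts together with the rest of the 16920 genes tested. RNA sequencing was performed on 15 female C57BL/6JN mice older than 17 months, with 1 library per mouse from a portion of pulverized muscle. The labels call the mice robust or frail, taken here as the Low frailty mice, positive for no more than 1 frailty marker, and the High frailty mice, positive for 2 or more. Sedentary mice formed Low Control (D8, D9, D11 and D98) and High Control (D23, D25 and D67). Low Run (D57, D61, D66 and D68) and High Run (D49, D52, D53 and D62) mice ran downhill on a treadmill (22 degrees, 13 m/min) in 2 bouts, and their muscles were taken 24 h after the second. The labels name no transgene or drug for any group.

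IGF-1 is produced by the liver under growth hormone and also within muscle, where it acts on neighbouring cells. It binds the IGF-1 receptor, a tyrosine kinase closely related to the insulin receptor, and both receptors phosphorylate the substrates IRS1 and IRS2, which recruit PI3-kinase and lead to Akt. Akt favours glucose uptake and protein synthesis and keeps FoxO transcription factors out of the nucleus, so that FoxO targets such as the ubiquitin ligase genes Trim63 and Fbxo32 are known as genes of fasting and atrophy. IGF binding proteins hold IGFs in the extracellular space and can limit or prolong their action, and Igfbp7 binds IGFs only weakly.

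Libraries held 19395125 to 30699216 counts (median 25926420). Levels are given as CPM, each gene's count normalised by edgeR to the library's total after TMM scaling. The 6 muscle fibre markers (Acta1, Ckm, Myh4, Myh1, Myh2 and Myh7) were detected in every mouse, with summed levels of 83110 to 141900 CPM, and markers of other cell types were also present. In whole muscle, fewer cells of a type and less RNA per cell cannot be told apart. On the first principal component of all tested genes, which held 33.4% of the variance, the Low Control mouse D9 and the High Run mouse D62 stood apart from the other 13 mice. On the second component (16.8%) the mice D53, D68 and D57 had the lowest scores (-35.4, -32.9 and -27.7), ahead of D62 (-17.6). Values without D9 and D62 are given beside the main results.

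The 10 genes spanned a wide range of abundance. In CPM per kilobase of exon (RPKM, mean ± SD, n = 15), the binding protein genes led, with Igfbp5 at 77.4 ± 47.9, Igfbp7 at 71.2 ± 15.3 and Igfbp6 at 52.9 ± 17.0. The spread of Igfbp5 and Igfbp7 overlapped widely, and Igfbp6 stood close beneath them. Igfbp4 followed at 21.6 ± 3.98 RPKM and Igfbp3 at 10.6 ± 11.5 RPKM. The Igfbp3 mean was raised by D62 (45.7 RPKM) and D9 (28.6 RPKM). In the other 13 mice Igfbp3 lay between 3.56 and 12.3 RPKM and overlapped Irs2, Irs1 and Insr, so no order among these genes is drawn. Irs2 (8.77 ± 6.23 RPKM), Irs1 (7.502 ± 1.75 RPKM) and Insr (6.12 ± 2.45 RPKM) did not differ beyond their spread. Igf1r (1.63 ± 0.44 RPKM) and Igf1 (1.57 ± 0.58 RPKM) had the lowest levels, and even Igf1 was counted at least 132 times in each library. The genes also differed in how much they varied between mice. The highest mouse exceeded the lowest 15.6-fold for Igfbp5, 12.8-fold for Igfbp3, 6.93-fold for Irs2 and 5.03-fold for Igf1, but only 1.91-fold for Igfbp4. For these genes except Igfbp4, D9 or D62 lay at an end of the range. In the other 13 mice Igfbp5 ran from 168.1 to 962.9 CPM and Igfbp3 from 11.1 to 38.4 CPM. Irs2 ran from 26.1 to 71.8 CPM and Igf1 from 9.89 to 27.5 CPM in these 13 mice.

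**Figure D1:**
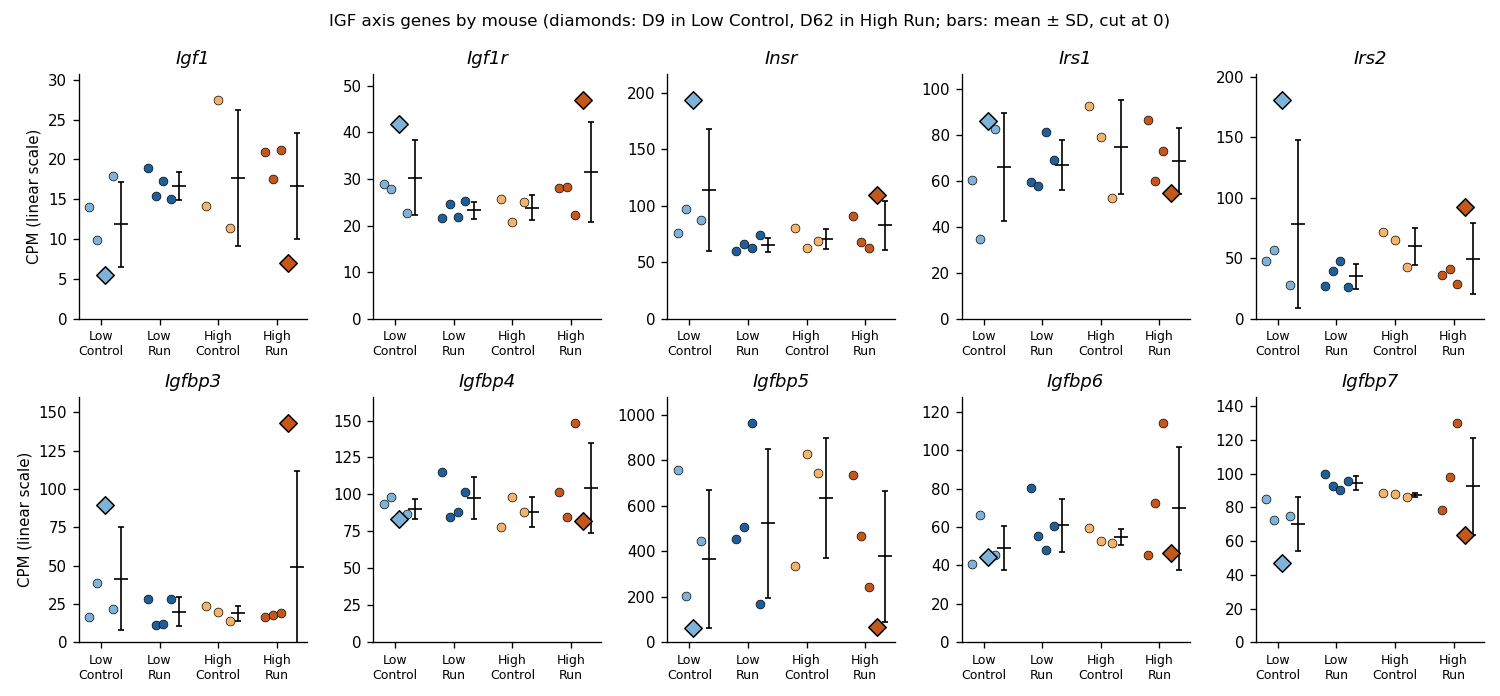
Level of each of the 10 IGF axis genes in each mouse (CPM, linear axis from 0) by group, with group mean ± SD beside the points (bars cut at 0) and diamonds for mice D9 and D62. Igf1r, Insr, Irs2 and Igfbp3 were higher in both of these mice than in any other mouse, and Igf1, Igfbp5 and Igfbp7 were lower.

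Igf1 (chr10:87858265-87937042, plus strand, GRCm38) encodes the ligand. Its level was 9.89, 5.46, 14.1 and 17.9 CPM in the Low Control mice D8, D9, D11 and D98, and 18.9, 15.5, 17.3 and 15.1 CPM in the Low Run mice D57, D61, D66 and D68. The Low groups overlapped through D98, and the Low Run mice lay close together. In High Control mice D23, D25 and D67 it was 14.1, 27.5 and 11.4 CPM, and in High Run mice D49, D52, D53 and D62 it was 20.9, 17.6, 21.2 and 6.96 CPM. The 2 lowest of all 15 values were those of D9 and D62. The log2 fold change was 0.49 ± 0.37 (SE) for Low Run against Low Control and -0.089 ± 0.39 for High Run against High Control, with 95% confidence intervals of -0.29 to 1.28 and -0.93 to 0.75. Neither passed edgeR's quasi-likelihood test (adjusted p = 0.519 and 0.990), and without D9 and D62 the values were 0.25 and 0.16.

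Igf1r (chr7:67952827-68233668, plus strand) encodes the IGF-1 receptor. Its level was 27.8, 41.7, 28.8 and 22.8 CPM in Low Control mice (D8, D9, D11 and D98) and 21.6, 24.5, 21.8 and 25.2 CPM in Low Run mice (D57, D61, D66 and D68). It was 25.7, 20.7 and 25.1 CPM in High Control mice (D23, D25 and D67) and 28.1, 28.3, 22.3 and 46.9 CPM in High Run mice (D49, D52, D53 and D62). D9 and D62 held the 2 highest values, and the remaining 13 mice lay between 20.7 and 28.8 CPM. The log2 fold change with running was -0.38 ± 0.21 in Low and 0.40 ± 0.23 in High mice (95% confidence intervals -0.83 to 0.076 and -0.091 to 0.89). Without D9 and D62 these values were -0.19 ± 0.13 and 0.13 ± 0.14.

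Insr (chr8:3122061-3279617, minus strand) encodes the insulin receptor, and in Low Run against Low Control it had the smallest unadjusted p of the 10 genes in any contrast. Its level was 97.5, 193.8, 76.4 and 87.8 CPM in Low Control mice (D8, D9, D11 and D98) and 59.9, 66.3, 62.5 and 73.7 CPM in Low Run mice (D57, D61, D66 and D68). Every Low Run mouse was below every Low Control mouse (3.59% of all tested genes were lower without overlap), also when D9 is set aside. The summed level of 4 adipocyte markers was lower in the same way, at 38.7 to 57.2 CPM in Low Run against 72.8 to 87.75 CPM in Low Control mice, and its part in the Insr and Irs2 values was not tested. In High Control mice (D23, D25 and D67) it was 80.6, 62.4 and 68.9 CPM, and in High Run mice (D49, D52, D53 and D62) it was 91.0, 67.9, 62.8 and 109.8 CPM. These High groups overlapped, with a log2 fold change of 0.23 ± 0.27 that became 0.058 without D62.

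For Low Run against Low Control the log2 fold change of Insr was -0.80 ± 0.25 (95% confidence interval -1.33 to -0.26, 0.576-fold), with an unadjusted p of 0.00638 and an adjusted p of 0.358 in edgeR, so the gene was not called at an FDR of 0.1. The exact permutation test of log2(CPM + 0.5), two-sided, gave p = 0.0286, which is the smallest p that 4 against 4 mice allow. Setting D9 and D62 aside brought the log2 fold change to -0.42 ± 0.15, with an unadjusted p of 0.0122 and an adjusted p of 0.650 in edgeR. The exact test without D9 again gave its smallest possible p, 0.0286. Leaving out each mouse of these groups in turn kept the unadjusted edgeR p under 0.05 in 8 of 8 fits. Over 9 other settings the log2 fold change ran from -0.81 to -0.42 and the adjusted p from 0.132 to 0.650.

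Irs1 and Irs2 encode the receptor substrates. Irs1 (chr1:82233101-82291416, minus strand) ranged over 34.8 to 85.9 CPM in Low Control, 57.8 to 81.1 CPM in Low Run, 52.6 to 92.6 CPM in High Control and 54.6 to 86.4 CPM in High Run mice. All 4 groups overlapped, and the log2 fold change with running was 0.021 ± 0.25 in Low and -0.13 ± 0.27 in High mice. The 95% confidence intervals were -0.51 to 0.56 and -0.70 to 0.45. Without D9 and D62 the values were 0.17 ± 0.25 and -0.039 ± 0.27. Leaving out 1 mouse at a time reversed the sign in Low mice in 4 of 8 fits (-0.19 to 0.17).

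Irs2 (chr8:10984681-11008458, minus strand) varied more than Irs1. Its level was 56.5, 181.0, 47.4 and 28.3 CPM in Low Control mice (D8, D9, D11 and D98) and 27.3, 39.4, 47.9 and 26.1 CPM in Low Run mice (D57, D61, D66 and D68). It was 71.8, 64.8 and 42.8 CPM in High Control mice (D23, D25 and D67) and 36.2, 41.4, 28.4 and 92.7 CPM in High Run mice (D49, D52, D53 and D62). Apart from D62, every High Run mouse was below every High Control mouse, and D9 was the highest of all. Irs2 had a log2 fold change of -1.15 ± 0.48 in Low mice (unadjusted p = 0.0298, adjusted p = 0.358, edgeR) and -0.27 ± 0.51 in High mice (adjusted p = 0.976, edgeR), the latter becoming -0.074 without D53. When D9 and D62 were left out, these became -0.33 ± 0.26 (unadjusted p = 0.227) and -0.77 ± 0.28 (unadjusted p = 0.0166, adjusted p = 0.643, edgeR). Leaving out 1 mouse at a time kept the unadjusted p in Low mice under 0.05 in 5 of 8 fits, the others being those without D9 (0.377), D57 (0.0720) or D68 (0.0731) in edgeR. The larger of the 2 running differences moved from the Low to the High group when these mice were left out. Averaged over both frailty groups, the log2 fold change was -0.71 ± 0.35 with all mice (unadjusted p = 0.0597) and -0.55 ± 0.19 without the pair (unadjusted p = 0.0127, adjusted p = 0.363, edgeR). The 2 mice moved this average of Irs2 in opposite directions, to -0.30 without D9 alone and to -0.96 without D62 alone.

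The promoters of Irs1 and Irs2 are shown because the 2 substrate genes share motifs there, although Irs2 was above all other mice in D9 and D62 and Irs1 was not. The 250 bases before the RefSeq transcription start (GRCm38.p6, minus strand, 5′ to 3′) lie at chr1:82291440-82291689 for Irs1 and chr8:11008930-11009179 for Irs2. Capitals mark matches, on either strand, to an E-box (CACGTG), to a core of the insulin response element (CAAAACA, here read as TGTTTTG) and to an Sp1 site (GGGCGG).
Irs1: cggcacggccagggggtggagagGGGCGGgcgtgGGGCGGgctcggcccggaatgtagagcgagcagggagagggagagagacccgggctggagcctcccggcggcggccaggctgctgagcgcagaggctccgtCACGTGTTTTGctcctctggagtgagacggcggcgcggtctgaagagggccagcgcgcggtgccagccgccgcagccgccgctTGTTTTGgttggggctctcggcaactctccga
Irs2: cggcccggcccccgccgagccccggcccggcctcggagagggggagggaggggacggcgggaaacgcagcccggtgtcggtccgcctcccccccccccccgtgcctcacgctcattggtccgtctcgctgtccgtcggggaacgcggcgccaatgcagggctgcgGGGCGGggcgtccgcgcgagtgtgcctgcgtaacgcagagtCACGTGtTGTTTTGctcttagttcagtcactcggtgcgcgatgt

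In Irs1 the E-box (bases 115 to 110 before the start) overlapped an insulin response match (bases 111 to 105) by 2 bases, and a second insulin response match lay at bases 32 to 26. In Irs2 the E-box (bases 44 to 39) and the insulin response match (bases 37 to 31) were 1 base apart. Among the 250-base windows of 32851 RefSeq promoters, 6.02% held an E-box, 5.56% an insulin response match and 32.7% an Sp1 match. Both of the first 2 matches occurred in 97 promoters, and in 14 of them at most 10 bases apart. The core FoxO motif GTAAACA, present in 3.17% of the promoters, was in none of the 9 members' windows that the RefSeq table holds. These are matches of letters only, and binding was not measured.

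The binding protein genes fell into those that were steady and those that varied. Igfbp4 (chr11:99041244-99054392, plus strand), whose product mostly holds IGF back, lay between 83.4 and 98.6 CPM in Low Control, 85.0 and 115.4 CPM in Low Run, 77.7 and 98.2 CPM in High Control and 82.4 and 148.2 CPM in High Run mice. With running it differed by a log2 fold change of 0.11 ± 0.17 in Low and 0.25 ± 0.19 in High mice, which became 0.019 without D57 and 0.029 without D53. Igfbp6 (chr15:102144362-102149511, plus strand), whose product prefers IGF-2, ranged over 40.8 to 66.01, 48.0 to 80.1, 51.8 to 59.3 and 45.6 to 114.0 CPM in the same order of groups. Its log2 fold change with running was 0.31 ± 0.26 in Low and 0.35 ± 0.28 in High mice, which became 0.15 without D57 and 0.0081 without D53. For both genes the groups overlapped and the confidence intervals included 0. The 2 highest values of Igfbp4, Igfbp6 and Igfbp7 alike were those of the High Run mouse D53 and the Low Run mouse D57.

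Igfbp7 (chr5:77349240-77408041, minus strand), a binding protein also made by blood vessels, was the one member whose level was higher in every Low Run than in every Low Control mouse. It was 72.8, 47.2, 84.7 and 74.9 CPM in Low Control mice (D8, D9, D11 and D98) and 99.9, 92.5, 90.1 and 95.9 CPM in Low Run mice (D57, D61, D66 and D68). Among all tested genes, 3.35% were likewise higher in every Low Run mouse. High Control mice D23, D25 and D67 were close together at 88.6, 87.9 and 86.1 CPM, also above all Low Control mice. High Run mice D49, D52, D53 and D62 spread over 78.7, 98.2, 130.0 and 63.5 CPM and overlapped High Control. The log2 fold change with running was 0.44 ± 0.20 in Low mice (1.35-fold, unadjusted p = 0.0438, adjusted p = 0.366, edgeR) and 0.081 ± 0.21 in High mice (adjusted p = 0.983, edgeR). The exact permutation test in Low mice gave p = 0.0286, with D9 and without it, the smallest that either design allows. The edgeR log2 fold change in Low mice without D9 and D62 was 0.28 ± 0.14 (unadjusted p = 0.0638), and leaving out 1 mouse at a time kept the unadjusted p under 0.05 in 1 of 8 fits. In High mice it was 0.22 ± 0.15 without the pair and -0.13 without D53. The difference between the Low and High values (High minus Low) thus moved from -0.36 with all mice to -0.062 without the pair. Averaged over both frailty groups the log2 fold change with running was 0.26 ± 0.15 with all mice and 0.25 ± 0.10 without the pair (unadjusted p = 0.0278, adjusted p = 0.459, edgeR), but 0.15 without D53.

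Igfbp3 (chr11:7206086-7213923, minus strand), the main carrier of IGF-1 in blood, took its 2 highest values in the mice that stood apart. Its level was 38.4, 89.5, 16.1 and 21.8 CPM in Low Control mice (D8, D9, D11 and D98) and 28.2, 11.1, 12.0 and 28.4 CPM in Low Run mice (D57, D61, D66 and D68). It was 23.3, 19.7 and 13.8 CPM in High Control mice (D23, D25 and D67) and 16.6, 18.0, 18.9 and 142.9 CPM in High Run mice (D49, D52, D53 and D62). The High Run value of D62 was far above the other 3. The log2 fold change with running was -1.06 ± 0.68 in Low and 1.37 ± 0.75 in High mice, and without D9 and D62 it was -0.37 ± 0.34 and -0.095 ± 0.37.

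Igfbp5 (chr1:72857932-72874884, minus strand), whose product binds extracellular matrix as well as IGFs, had the widest range. It was 203.0, 61.8, 755.4 and 446.7 CPM in Low Control mice (D8, D9, D11 and D98) and 453.8, 507.3, 962.9 and 168.1 CPM in Low Run mice (D57, D61, D66 and D68). It was 333.6, 826.0 and 744.5 CPM in High Control mice (D23, D25 and D67) and 734.7, 465.1, 240.8 and 67.3 CPM in High Run mice (D49, D52, D53 and D62). Every pair of groups overlapped. The log2 fold change with running was 0.51 ± 0.71 in Low and -0.75 ± 0.75 in High mice, with 95% confidence intervals of -0.99 to 2.01 and -2.35 to 0.85. These were among the widest intervals of the 10 genes, together with those of Igfbp3. Leaving out D9 and D62 gave 0.15 ± 0.54 and -0.41 ± 0.57. In Low mice the Igfbp5 value also moved to 0.026 without D66 and to 1.13 without D11, and in High mice to -1.31 without D49.

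Across the 10 genes, no member was called at an FDR of 0.1 by edgeR in any of the 6 contrasts, nor was any other gene (0.0% of 16920 in each contrast). In Low Run against Low Control, 3 of 10 members had an unadjusted p under 0.05 (Insr and Irs2 lower, Igfbp7 higher), beside 13.4% of all tested genes. Members without overlap between these groups were Insr (lower, beside 3.59% of all genes) and Igfbp7 (higher, beside 3.35%), 2 of 10 against 6.93% in all. In High Run against High Control, 0 of 10 members had an unadjusted p under 0.05 (edgeR; 5.18% of all genes) and all 10 overlapped (7.07% of all genes did not). DESeq2's Wald test called 9 genes in the Low and 15 in the High comparison, and no member among them. In the 13 other mice, 1 member had an unadjusted p under 0.05 in Low mice (Insr, with 7.33% of all genes) and 1 in High mice (Irs2, with 6.85%). In the running difference averaged over both frailty groups, 0 of 10 members had an unadjusted p under 0.05 with all mice in edgeR (8.63% of all genes), and 2 of 10, Irs2 and Igfbp7, without the pair (9.79%).

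**Figure D2:**
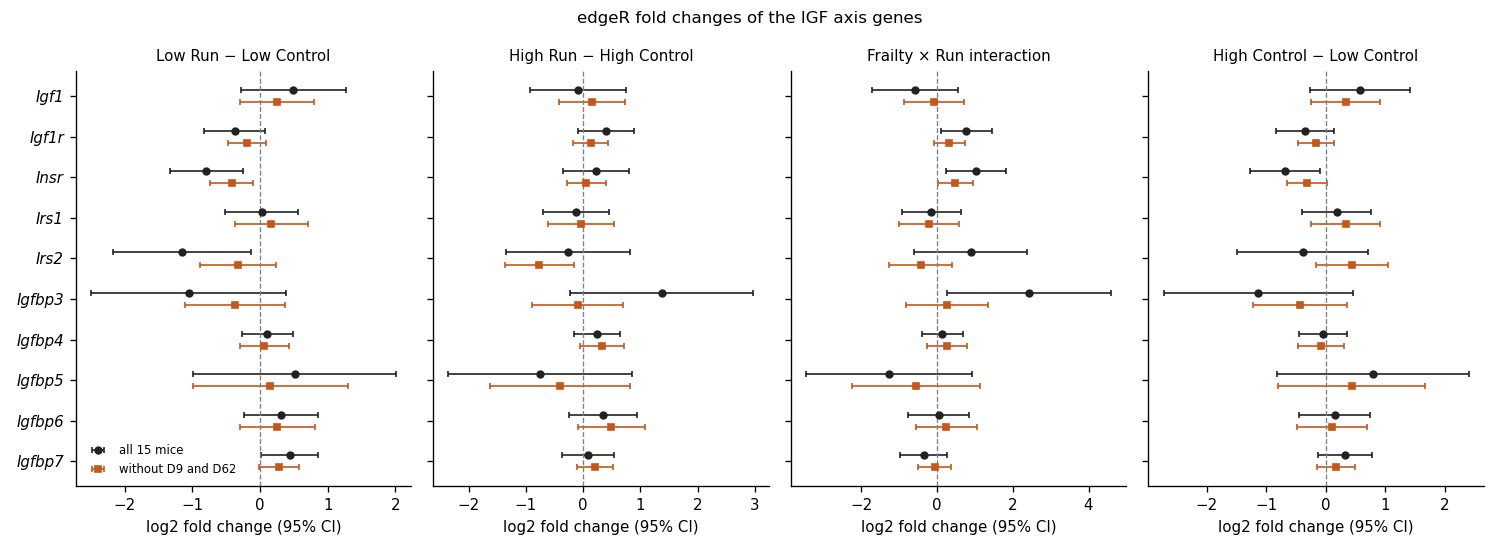
Log2 fold change of each member with its 95% confidence interval from edgeR in 4 contrasts, with all 15 mice (black circles) and without D9 and D62 (orange squares). Leaving out the 2 mice brought the Igfbp3 interaction from 2.43 to 0.27 and that of Insr from 1.03 to 0.48.

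The Frailty × Run interaction asks whether the running difference of High mice departs from that of Low mice. An unadjusted p under 0.05 was found for 3 of 10 members, beside 7.93% of all genes, and in each of the 3 the running difference was more positive in High mice. The interaction was 1.03 ± 0.37 on the log2 scale for Insr (unadjusted p = 0.0144), 0.78 ± 0.32 for Igf1r (unadjusted p = 0.0253) and 2.43 ± 1.02 for Igfbp3 (unadjusted p = 0.0294), with an adjusted p of 0.600 for each in edgeR. Insr kept an unadjusted p under 0.05 in 15 of 15 fits that left out 1 mouse, Igf1r in 12 and Igfbp3 in 9. Igf1r did not without D9 (unadjusted p = 0.0579), D62 (0.0601) or D25 (0.0673) by edgeR, and Igfbp3 did not without D62, when its interaction was 0.98, without D9, when it was 1.74, or without D61, D66, D25 or D67, when it was 2.24 to 2.46. With both D9 and D62 left out, the interaction was 0.48 ± 0.22 for Insr (unadjusted p = 0.0427, adjusted p = 0.983), 0.33 ± 0.19 for Igf1r (unadjusted p = 0.112) and 0.27 ± 0.51 for Igfbp3 (unadjusted p = 0.596) by edgeR, and 4.42% of all genes then had an unadjusted p under 0.05. With offsets for gene length and GC content, Igfbp3 alone of the 3 stayed under 0.05, and Insr and Igf1r did not.

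Frailty without running was compared between High Control and Low Control mice. Here 1 of 10 members had an unadjusted p under 0.05 (5.86% of all genes), which was Insr at a log2 fold change of -0.69 ± 0.28 (unadjusted p = 0.0240, adjusted p = 0.704, edgeR). Without D9 it was -0.31 with an unadjusted p of 0.129 by edgeR, the unadjusted p was also above 0.05 without D25 (0.0819) or D67 (0.0600), and the exact permutation test with all mice gave p = 0.143. Leaving out both D9 and D62, 0 of 10 members had an unadjusted p under 0.05 in edgeR (3.8% of all genes). Igfbp7 was the 1 member without overlap (10.4% of all genes), being higher in all 3 High Control mice (5.13% of all genes in that direction), with a log2 fold change of 0.33 ± 0.21 and an exact permutation p of 0.0571. Without D9 the Igfbp7 value was 0.17, and the exact permutation p was 0.1, the smallest that 3 against 3 mice allow. These comparisons share the Low Control mice with the Low running comparison, so the lower Insr and the higher Igfbp7 in both are not separate observations. After running, High Run against Low Run, 0 of 10 members had an unadjusted p under 0.05 in edgeR (2.51% of all genes), all 10 overlapped (1.5% did not), and the count was again 0 of 10 without the pair (2.73%). The smallest unadjusted p there belonged to Igf1r (log2 fold change 0.43 ± 0.21, and 0.17 ± 0.13 without D9 and D62) and to Igfbp3 (1.30 ± 0.68, and -0.16 ± 0.35 without them).

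D9 and D62 belong to different groups but shared one pattern across the axis. Because they were chosen from the expression of all genes, members included, the pattern is described without a test. Igf1r, Insr, Irs2 and Igfbp3 were higher in both than in any of the other 13 mice (4 of 10 members, beside 13.4% of all genes), and Igf1, Igfbp5 and Igfbp7 were lower in both (3 of 10, beside 11.5%). Irs1, Igfbp4 and Igfbp6 lay within the range of the others. Igfbp5, at 61.8 and 67.3 CPM, compared with a lowest value of 168.1 CPM elsewhere. Igfbp3, at 89.5 and 142.9 CPM, compared with a highest value of 38.4 CPM elsewhere. Receptors and Irs2 were thus high in the mice in which the ligand and Igfbp5 were low.

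**Figure D3:**
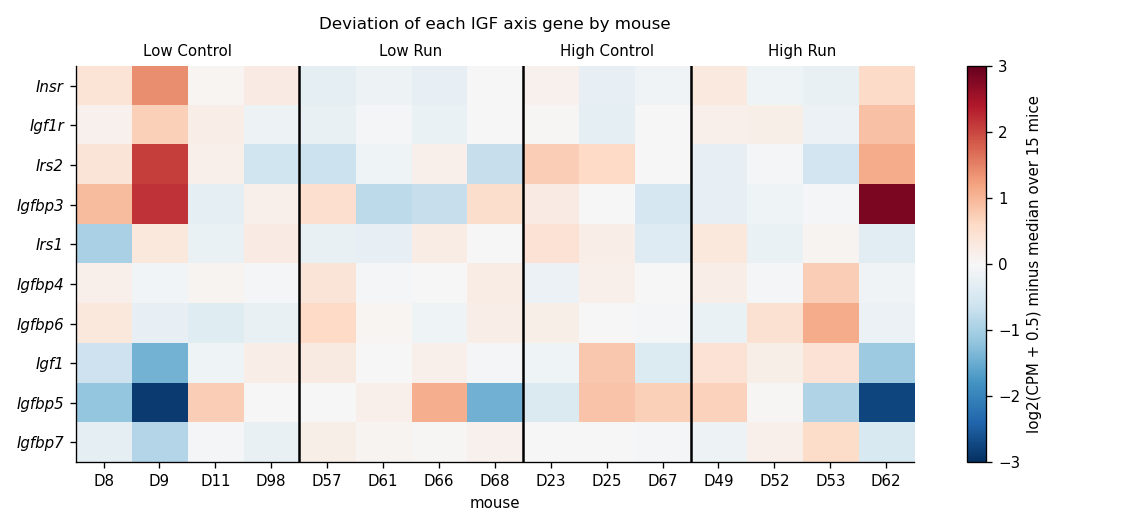
Deviation of each member from its median over 15 mice (log2(CPM + 0.5), colour scale from -3 to 3) by mouse, with groups separated by vertical lines. D9 in Low Control and D62 in High Run show the same signs in Insr, Igf1r, Irs2 and Igfbp3 (red) and in Igf1, Igfbp5 and Igfbp7 (blue).

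The genes downstream showed the same 2 mice apart. Of 12 genes listed as FoxO and fasting targets, 9 were higher in both D9 and D62 than in the other 13 mice and 2 were lower, beside the 13.4% and 11.5% of all genes. Trim63, a muscle ubiquitin ligase, was at 6083 and 3834 CPM against 212 to 1413 CPM in the others. Fbxo32, a second such ligase, was at 3839 and 3293 CPM against 370 to 1726 CPM. Pdk4, which restrains glucose oxidation, was at 6837 and 4684 CPM against 130 to 2650 CPM. The range of Eif4ebp1, a brake on translation, was 28.9 to 106.8 CPM in the others, with 286.2 and 307.6 CPM in the pair. Of 19 genes of PI3-kinase, Akt and their targets, 7 were higher in both and 1, the glucose transporter gene Slc2a4 (402.3 and 494.5 CPM against 561.0 to 703.9 CPM), was lower. The other lists stood out less, with 1 of 14 receptor-level genes higher in both and 3 lower, 2 of 8 ligands, carriers and regulators higher and 0 lower, and 1 of 6 growth hormone axis genes higher and 0 lower. Foxo1 was at 282.4 and 331.9 CPM against 36.3 to 110.5 CPM, and Pik3r1, a regulatory subunit of PI3-kinase, at 306.7 and 229.8 CPM against 49.4 to 134.7 CPM.

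Pairs of members were compared across mice. Correlations were computed on deviations from group means of log2(CPM + 0.5), over 45 pairs of members that share libraries and depth. Over 15 mice, 24 pairs had a permutation p under 0.05 after adjustment over the 45 by Pearson's r and 9 by Spearman's rho. In the 13 mice other than D9 and D62, 0 pairs did by Pearson's r and 1 by Spearman's rho, which was Igfbp5 with Igfbp6 (rho = -0.85, adjusted permutation p = 0.0221, r = -0.69). Most of the relations therefore rest on those 2 mice. Igf1 and Igf1r had r = -0.92 and rho = -0.93 over 15 mice (adjusted permutation p = 0.00015 and 0.00045). Insr and Igfbp7 had r = -0.89 and rho = -0.83 (0.00015 and 0.0036 by the same permutation tests). Igfbp3 and Igfbp5 had r = -0.89 and rho = -0.84, with the same adjusted values as the pair before. In each of these 3 pairs the 2 mice farthest from the median were D9 and D62, without which r was -0.79, -0.77 and -0.79. With deviations taken anew in 13 mice it was -0.72, -0.71 and -0.75, with an adjusted permutation p of 0.0617 each, so their direction held while the adjusted p did not.

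**Figure D4:**
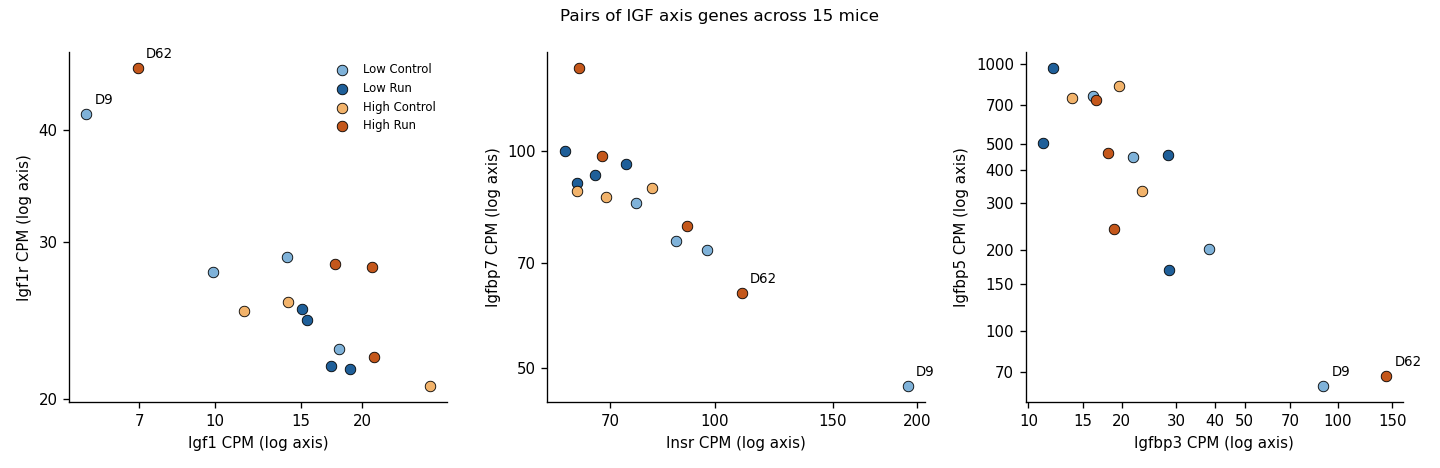
Levels (CPM, log axes) of 3 pairs of members in each of 15 mice, coloured by group, with D9 and D62 named. In each panel the 2 genes run in opposite directions, with D9 and D62 at 1 end.

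Among all genes tested, those closest in pattern to each member over the 15 mice were found by Pearson's r of log2(CPM + 0.5), a description that reads D9 and D62 strongly. Insr was matched by Gsk3b, a kinase gene within the same pathway (r = 0.99, and 0.98 without the pair), and by the histone methyltransferase gene Kmt2c (0.98 and 0.95). Igfbp3 was matched by Rab12 (0.97 and 0.90), Igfbp5 by Trim7 (0.97 and 0.91) and Tmtc1 (0.95 and 0.89), and Igfbp7 by Hspbp1 (0.97 and 0.92) and Sdhaf4 (0.95 and 0.90). Igf1 was closest to 6430571L13Rik (0.94 and 0.87) and Grtp1 (0.92 and 0.77), Igf1r to Pkp4 (0.95 and 0.80) and Arvcf (0.94 and 0.68), and Irs2 to Flcn (0.94 and 0.82) and Gpr157 (0.94 and 0.80). Igfbp6 was closest to Il11ra1 (0.93 and 0.93) and Vat1 (0.93 and 0.93), and Igfbp4 to AC124459.1 (0.90 and 0.90) and Blvrb (0.90 and 0.90). Irs1 had the loosest matches, Mogs (0.85 and 0.84) and Dnaaf2 (0.80 and 0.80). For Irs1, Igfbp4 and Igfbp6, the members that D9 and D62 did not mark, the r of these matches was nearly the same without these mice. Their ranks among all genes in the 13 mice were then 2 and 8 for Irs1, 3 and 5 for Igfbp4 and 2 and 3 for Igfbp6. Another gene was thus closest to each of them there.

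Other genes of the pathway were counted in 5 lists of 63 genes, of which 59 were tested. None was called at an FDR of 0.1 in any contrast (edgeR). In Low Run against Low Control, 12 of 59 had an unadjusted p under 0.05 and were lower, beside 7.52% of all genes, and 1 was higher, beside 5.92%. Their median log2 fold change was -0.33, against 0.016 over all genes. In High Run against High Control, 1 was higher (3.28% of all genes) and 1 lower (1.9%), with a median of 0.068 against 0.047. In the interaction 13 were higher (5.24%) and 3 lower (2.69%), with a median of 0.36 against 0.034. In High Control against Low Control, 1 was higher (1.8%) and 6 lower (4.06%). When D9 and D62 were left out, the Low counts became 6 lower and 1 higher, beside 3.65% and 3.68% of all genes in the same 13-mouse fit. Those of the interaction became 3 higher and 1 lower, beside 2.68% and 1.74%. High Run against High Control then had 1 higher and 3 lower (4.21% and 2.64% of all genes), and High Control against Low Control 2 higher and 2 lower (1.42% and 2.39%). The medians were then -0.11 in Low mice, -0.043 in High mice and 0.018 in the interaction, against 0.015, 0.011 and 0.00050 over all genes, so the sign of the High median reversed.

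Ligands, carriers and regulators of the binding proteins gave 8 tested genes. Igf2, the second IGF, was lower in Low Run by a log2 fold change of -0.97 ± 0.35 (unadjusted p = 0.0127, adjusted p = 0.358, edgeR), and -1.16 without D9 and D62. Its counts were low, 17 to 96 per library. Pappa2, a protease that cleaves binding proteins, had an interaction of 2.04 ± 0.61 on the log2 scale, with an unadjusted p of 0.00439, an adjusted p of 0.600 (edgeR) and 2.19 without the pair. It was higher in all High Run than in all High Control mice, at 17 to 21 against 5 to 10 counts, so sampling noise is large at this level. Pappa2 had log2 fold changes of -0.87 ± 0.40 in Low mice, 1.16 ± 0.46 in High mice and -1.48 ± 0.46 in High Control against Low Control. Without the Low Control mouse D11 the first of these was -0.34 and the last -0.94.

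Among 14 genes that act at the receptors, the phosphatase gene Ptprf had a log2 fold change of -0.57 ± 0.20 in Low mice and an interaction of 0.92 ± 0.29 (unadjusted p = 0.0112 and 0.00605, edgeR). It was little changed without D9 and D62, at -0.59 and 0.87. Socs1, a cytokine-induced inhibitor, was higher in Low Run by 1.92 ± 0.64 (1.54 without the pair) on 1 to 47 counts per library (unadjusted p = 0.00901, edgeR). The adaptors Grb14 and Sh2b2 had interactions of -1.21 ± 0.49 and -0.81 ± 0.34 (-0.74 and -0.58 without the pair), and Grb14 was higher in High Control than in Low Control by 0.76 ± 0.36 (0.54 without it). In High mice the smallest unadjusted p of this list with running belonged to the adaptor gene Grb2 (-0.22 ± 0.13, and -0.14 without the pair).

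Genes of PI3-kinase, Akt and their targets were lower after running in Low mice in 18 of 19 cases by sign (48.1% of all genes), 5 of them at an unadjusted p under 0.05 in edgeR (7.52% of all genes), with a median log2 fold change of -0.33. They included Gsk3b (-0.83 ± 0.27), Tbc1d1 (-0.88 ± 0.30), a regulator of glucose transport, Pdpk1 (-0.68 ± 0.26), the kinase upstream of Akt, and Pik3r1 (-1.21 ± 0.48). In the 13-mouse fit these 4 were at -0.43, -0.44, -0.31 and -0.51. The sign without D9 and D62 was negative in 17 of 19 (47.8% of all genes), with a median of -0.19 and 1 lower gene, Gsk3b, at an unadjusted p under 0.05 (3.65%). In the interaction 6 of 19 were higher (5.24% of all genes) and 0 lower (2.69%) at that level, among them Pik3r1 (2.22 ± 0.72, and 0.87 without the pair), Gsk3b (1.08 ± 0.40, and 0.47), Pdpk1 (0.95 ± 0.38, and 0.38) and Foxo3 (1.33 ± 0.53, and 0.36). In High Control against Low Control the 4 lower genes (4.06% of all genes) were Pik3r1 (-1.37 ± 0.53), Tbc1d1 (-0.83 ± 0.33), Gsk3b (-0.70 ± 0.29) and Pdpk1 (-0.67 ± 0.28), which without the pair were at -0.67, -0.39, -0.30 and -0.29. Without the pair the counts of this list were 1 higher and 0 lower in the interaction (2.68% and 1.74% of all genes) and 0 higher and 1 lower in High Control against Low Control (1.42% and 2.39%). With running in High mice, Pik3r1 had the smallest unadjusted p of the list at 1.01 ± 0.53, and was at 0.36 without D62. The FoxO and fasting targets had the largest medians, -0.78 in Low mice, 0.62 in High mice and 1.70 in the interaction. These rested on the 2 mice, since without them the medians were -0.045, -0.46 and -0.041. In Low mice 3 of these 12 genes were lower at an unadjusted p under 0.05 in edgeR (7.52% of all genes), and 0 of 12 without the pair (3.65%). The 3 were Trim63 (-2.27 ± 0.91), Fbxo32 (-1.67 ± 0.70) and Pdk4 (-2.04 ± 0.92), which became -0.72, -0.81 and -0.91 without the pair. In the interaction 0 of 12 were higher or lower at that level without the pair (2.68% and 1.74% of all genes). In the interaction Trim63 was at 3.33 ± 1.34, which became 0.054 without the pair, and Fbxo32 and Eif4ebp1 at 2.44 ± 1.03 and 2.45 ± 1.05, which became 0.34 and 0.17. Foxo6 went the other way (-2.01 ± 0.86, and -1.42 without the pair). The cell cycle inhibitor gene Cdkn1a was at 1.28 ± 0.65 with running in High mice and at -1.46 ± 0.66 in High Control against Low Control, which became 0.36 without D62 and -0.79 without D9.

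In the growth hormone axis, which drives Igf1, the growth hormone receptor gene Ghr was lower in High Run than in High Control by a log2 fold change of -0.51 ± 0.18 (unadjusted p = 0.0101, adjusted p = 0.956, edgeR), and -0.45 without the pair. Its interaction was -0.43 ± 0.24, and it was at 0.35 ± 0.18 in High Control against Low Control (-0.27 and 0.25 without the pair). Stat5b, a transcription factor of the same axis, was lower in Low Run by -0.50 ± 0.20, and by -0.37 without the pair. In all of these lists no gene reached the FDR, and the counts stand beside those of all genes without a test of the list.

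**Figure D5:**
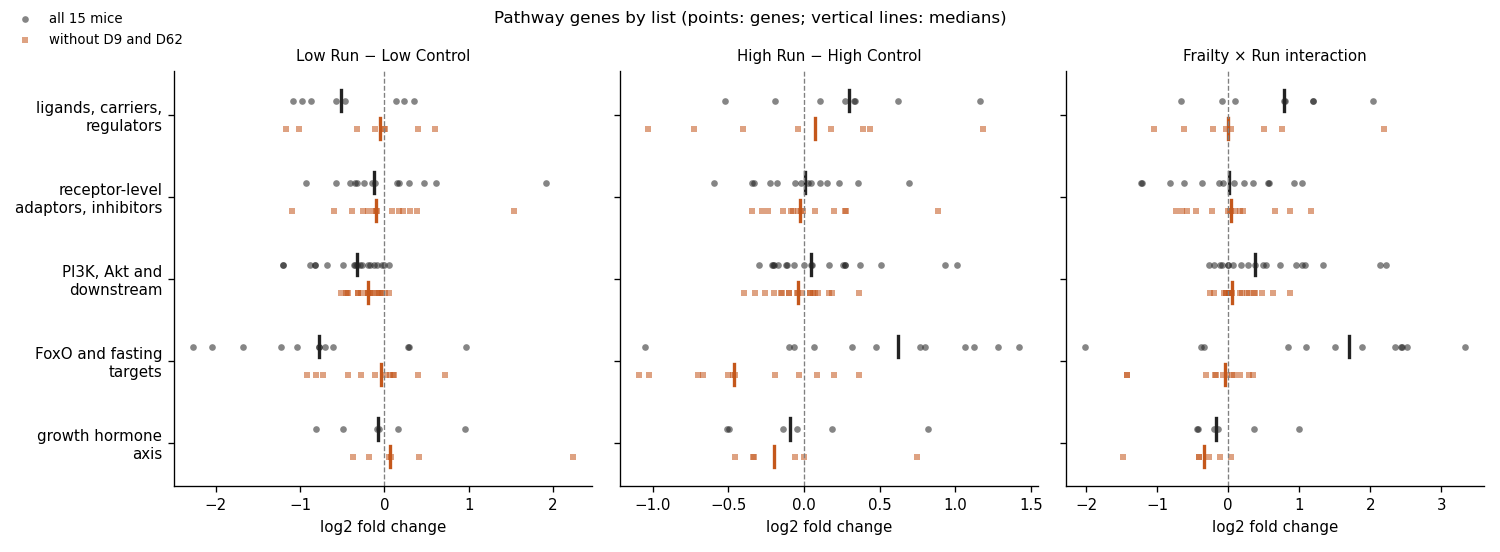
Log2 fold change of each tested gene of the 5 pathway lists in the Low and High running comparisons and in their interaction, with all 15 mice (black) and without D9 and D62 (orange), and list medians as vertical lines. The median of the FoxO and fasting targets moved from 1.70 to -0.041 in the interaction when the 2 mice were left out.

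Markers of other cell types moved beside some members. The summed level of 6 fibroblast markers ran from 722.1 to 977.1 CPM in Low Control, 847.9 to 1568 in Low Run, 965.6 to 1250 in High Control and 600.0 to 1605 in High Run mice. The 4 tendon cell markers ran from 148.3 to 354.8, 153.6 to 625.2, 270.9 to 513.4 and 142.7 to 845.1 CPM in the same order. Most of this sum was 1 gene, Fmod, with group means of 196.6 of 211.5 CPM in Low Control and 484.2 of 513.8 CPM in High Run. D53, the mouse highest in Igfbp4, Igfbp6 and Igfbp7, had the highest tendon sum (845.1 CPM) and the third highest fibroblast sum (1495 CPM), and D62 the lowest of both. The 6 endothelial markers ran from 207.0 to 383.8 CPM over all mice. The 6 macrophage markers ran from 87.1 to 162.4 CPM in Low Control and 152.6 to 194.4 CPM in Low Run mice. Their sums were 77.3 to 120.9 CPM in High Control and 99.3 to 226.7 CPM in High Run mice. The 3 neutrophil markers ran from 7.43 to 53.2 CPM in Low Control mice. In Low Run they were at 11.7, 9.01, 8.57 and 392.8 CPM in D57, D61, D66 and D68. In High Control and High Run mice they ran from 1.625 to 35.0 and 2.05 to 51.1 CPM. The 4 Schwann cell markers ran from 89.7 to 176.3, 61.4 to 123.2, 124.8 to 140 and 90.3 to 283.5 CPM in the same order. The 4 adipocyte markers, whose sums did not overlap between the Low groups, ran from 45.7 to 121.6 CPM in High Control and 43.2 to 68.2 CPM in High Run mice. In Low Run against Low Control, Cidec and Lep had log2 fold changes of -1.04 ± 0.30 and -1.65 ± 0.49 (unadjusted p of 0.00333 and 0.00383, adjusted p of 0.358 for both, edgeR), and Adipoq and Plin1 of -0.56 and -0.57. The 3 erythroid markers ran from 134.5 to 697.1 CPM in Low Control, 69.0 to 238.1 in Low Run, 88.4 to 138.6 in High Control and 103.9 to 936.3 CPM in High Run mice, the highest being D53. Their interactions were 3.58 ± 0.98 for Alas2, 3.06 ± 0.89 for Hba-a1 and 3.25 ± 1.01 for Hba-a2 (adjusted p of 0.600 each, edgeR). The 6 muscle fibre markers ran from 99660 to 141900 CPM in Low Control and 94830 to 116700 CPM in Low Run mice. Between the High groups they did not overlap (116500 to 135000 CPM in High Control, 83110 to 108600 CPM in High Run). Within each frailty group, Myh4 was lower in every run mouse than in every sedentary mouse. Its range was 48770 to 69150 CPM in Low Control and 32689 to 46905 CPM in Low Run. In High mice it was 51117 to 58632 against 31554 to 50216 CPM. Of all tested genes, 6.93% in Low and 7.07% in High mice did not overlap in either direction. In Low mice the group means of Acta1, Ckm, Myh2 and Myh7 were higher with running, and that of Myh1 was lower (3704 to 3605 CPM). In High mice the means of Myh2 (2152 to 2688 CPM) and Myh7 (735.4 to 1126 CPM) were higher, and those of Acta1, Ckm and Myh1 were lower. No list had a marker at 0 in any mouse. The part of these cell types in the levels of the members was not tested.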

How the data were processed

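Gastrocnemius libraries of 15 mice were used in 4 groups of 3 or 4, each library being 1 mouse. The authors aligned reads to mm10 with STAR 2.7.9a (version from the submitters' processing notes), used featureCounts with Ensembl build 100 to count properly paired, uniquely mapped reads per gene on the gene's own strand, and deposited whole-number counts per gene without normalization. Of the members, 5 overlap a gene on the other strand, which same-strand counting keeps apart. A second deposited table, a variance-stabilizing transformation of these counts, was not used here.

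Genes with low counts were removed by filterByExpr, and counts were scaled by TMM and tested with edgeR 4.0.16 (quasi-likelihood F-test, 1 mean per group, all 15 mice, R 4.3.3). P-values were adjusted by Benjamini-Hochberg over 16920 genes and called at an FDR of 0.1. Errors are SE unless named SD. Exact permutation tests used log2(CPM + 0.5), two-sided, and cannot give less than 0.0286 with 4 against 4 or 3 against 4 mice. They were not adjusted over genes or contrasts. Correlations were permuted 100000 times, so an unadjusted permutation p cannot fall below 1e-05. Deviations from group means were exchanged freely among all mice. The removal of the group means was not allowed for, so these p-values may be too small. On simulated counts for Low Run against Low Control (16558 genes) edgeR called 56 of 100 genes changed by a log2 fold change of 1 and 90 of 100 changed by 2, with 18 false calls. Each gene was drawn independently around 1 mean for all mice, apart from the changes set in Low Run. The simulation thus held no mice like D9 and D62 that shift many genes together, and its counts do not give the power in the real libraries. Total counts of 19395125 to 30699216 gave each member at least 132 counts.

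GENCODE M21 (GRCm38) gave the names and coordinates and RefSeq (GRCm38.p6) the promoters, which held 9 of 10 members (all but Insr). All members were named. From each pathway list up to 4 genes with the smallest unadjusted p under 0.05 per contrast were named, or else the 1 with the smallest p, and for each member the 2 genes closest in pattern, of which 1 is not reported here. Genes quoted for D9 and D62 were picked after their values were seen. The members and lists, and the choice to leave out D9 and D62, were made with earlier results of these data known. Alternatives were DESeq2 1.42.0, RLE and upper-quartile scaling, no count filter, a stricter filter (10 counts or more in each mouse), only the 2 groups compared, voom with quality weights (limma 3.58.1), length and GC offsets, an FDR of 0.05, and leaving out mice.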

Additional observations from a re-analysis of the deposited data

Results flagged for a closer look

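Igfbp3 in the High Run mouse D62, at 142.9 CPM, stood apart from its group, with a gap to the next mouse equal to 0.982 of the group's range, above Dixon's 95% critical value for 4 samples. The other 3 High Run mice had 16.6, 18.0 and 18.9 CPM, and the Low Control mouse D9 had 89.5 CPM. Among 30 groups of 4 mice tested for the 10 genes this was the 1 such value, and chance alone gives about 1 in 20.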

How the results depend on the processing

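Alternatives were followed for 85 log2 fold changes, 47 of them of members (all 10 in Low, High, the interaction and High Control against Low Control, and some in the other contrasts). Of 766 alternative values 0 passed the FDR of 0.1 and 11 reversed in sign. Genes called in the whole table, 0 in edgeR, were 9 (Low), 15 (High) and 105 (run averaged) with DESeq2, 86 (Low), 19 (High), 4 (interaction), 6 (High Run against Low Run) and 81 (run averaged) with no count filter, and 45 (High) with voom weights. Members with an unadjusted p under 0.05 were 2 in High Control against Low Control, 1 in High, 2 in High Run against Low Run and 1 in run averaged with no count filter. High Control against Low Control gave 0 in a fit of only the 2 groups, with length and GC offsets and without D9 and D62. High Run against Low Run gave 1 with upper-quartile scaling or voom, and the interaction 1 with offsets. Without D9 and D62 there were 1 in Low, 1 in High, 1 in the interaction and 2 in run averaged. The cause of these differences was not tested.

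Reversed log2 fold changes were Igf1 in High (0.14 with voom, 0.16 without the pair), Igfbp3 in High and in High Run against Low Run (-0.095 and -0.16 without the pair), Irs2 in High Control against Low Control (0.35 with voom, 0.44 without the pair) and in the interaction (-0.27 and -0.43), Trim63 in the interaction (-0.023 with voom), and, with upper-quartile scaling, Igfbp4 in High Control against Low Control (0.0095) and Igfbp6 in the interaction (-0.0072). Correlations that reversed without the pair were Igf1r with Igfbp3 (-0.029), Irs2 with Igfbp3 (-0.16), Irs2 with Igfbp5 (0.22) and Igfbp3 with Igfbp7 (0.090). Spearman's rho gave 9 pairs, and Pearson's r without the pair 0.

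With each mouse left out in turn, 21 of 836 values reversed, and members at an unadjusted p under 0.05 ranged over 1 to 3 (Low), 0 to 1 (High), 1 to 4 (interaction), 0 to 1 (High Control against Low Control), 0 to 2 (High Run against Low Run) and 0 to 3 (run averaged). Genes called stayed at 0. Values that changed sign ranged from -0.32 to 0.38 (Igf1 in High), -0.095 to 1.66 (Igfbp3 in High), -0.16 to 1.59 (Igfbp3 in High Run against Low Run), -0.13 to 0.041 and -0.080 to 0.24 (Igfbp4 in High Control against Low Control and in the interaction), -0.30 to 0.20 (Igfbp6 in the interaction) and -0.13 to 0.22 (Igfbp7 in High). Irs1 ranged from -0.027 to 0.38 (High Control against Low Control), -0.33 to 0.057 (High), -0.19 to 0.17 (Low) and -0.35 to 0.063 (interaction), and Irs2 from -0.67 to 0.44 in High Control against Low Control. No paired analysis was possible because the groups share no replicate numbers.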
